A study of Mus musculus with 14 samples.

Results

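The genes Twist1, Twist2, Prrx1, Prrx2, Snai1, Snai2, Zeb1, Zeb2, Tcf21 and Tcf4 encode transcription factors of mesenchymal cells, several of which are known to drive epithelial to mesenchymal transition (EMT). These 10 genes were followed among the 21755 protein-coding genes of chromosomes 1 to 19 and X. A site of acetylated lysine 27 of histone H3 (H3K27ac) was assigned to a gene if any of its bases lay in the gene body or in the 100 kb beyond either end, a stretch called the window below. By this rule 375 of the 122171 sites on these chromosomes (122228 in the whole list) fell into the 10 windows, which do not overlap. The rule used the names of the genes and not the measured sites, but the genes were chosen with earlier results of these data known.

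In the mouse genome GRCm38 (mm10), with the genes of GENCODE M21, Twist1 lies at chr12:33957671-33959829 and Twist2 at chr1:91801461-91848028, both on the plus strand. Prrx1 lies at chr1:163245119-163313710 on the minus strand and Prrx2 at chr2:30834972-30881251 on the plus strand. Snai1 lies at chr2:167538195-167542814 and Snai2 at chr16:14705852-14709385, both on the plus strand. Zeb1 lies at chr18:5591860-5775467 on the plus strand and Zeb2 at chr2:44983632-45117395 on the minus strand. Tcf21 lies at chr10:22817281-22820174 on the minus strand and Tcf4 at chr18:69343356-69689079 on the plus strand.

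H3K27ac was measured by chromatin immunoprecipitation followed by sequencing (ChIP-seq) in immortalised mouse embryo fibroblasts (iMEF). All cells, controls included, carried human ASH2L with an N-terminal FKBP12F36V tag from a lentivirus, while exon 4 of the endogenous Ash2l gene was deleted. The study names the cells of these experiments as NG3, which is 1 clone. ASH2L belongs to the KMT2 complexes, the methyltransferases of histone H3 lysine 4, and dTAG-13 is a small molecule that brings about degradation of the tagged protein. Of the 14 libraries, 12 were of H3K27ac, with 2 from untreated cells and 2 from each of 5 times of dTAG treatment (30 min or 2, 4, 8 or 16 h), and the other 2 were inputs, 1 untreated and 1 at 16 h. The sites analysed here were a single list joined over all these samples, with a position and a width for each site but no read count. The depth behind a site was unknown, a site may come from any time point, and no value below has a replicate error or a test.

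The cell type was checked against marker genes. A promoter site, with its middle within 1 kb of a transcription start site (TSS), was found for 54.7% of all protein-coding genes and for 9 of 12 fibroblast markers, the exceptions being Col1a1, Dcn and Lum. Of these, Col1a1 still had all bases within 1 kb of its 5′ end in sites. Such a site was found for 1 of 8 epithelial markers (Krt8), 2 of 6 endothelial markers (Cdh5 and Tek), 1 of 6 blood markers (Cd68) and 0 of 4 skeletal muscle, 0 of 5 neural and 0 of 4 pluripotency markers.

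TWIST1, TWIST2, TCF21 and TCF4 are basic helix-loop-helix (bHLH) proteins, which bind E-box DNA as dimers. TCF4, also called E2-2, belongs to the widely expressed E proteins with which tissue-restricted bHLH factors such as TWIST1 and TCF21 pair. PRRX1 and PRRX2 are homeodomain proteins of limb and facial mesenchyme. SNAI1, SNAI2, ZEB1 and ZEB2 are zinc finger proteins that bind the E-box CAGGTG and repress epithelial genes such as Cdh1, which encodes E-cadherin. H3K27ac marks active promoters and enhancers, and thus sites at the 5′ end of a gene and sites away from any promoter were counted separately.

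Among these genes 9 of 10 had a site touching the 1 kb on either side of one of their TSSs, compared to 55.8% of all protein-coding genes. When the middle of the site had to lie in that range, 7 of 10 genes had a promoter site and 54.7% of coding genes did. Among coding genes with a CpG island within 1 kb of a TSS, the share was 80.3%, and 8 of the 10 genes had such an island. The 2 genes lost by the stricter definition were Prrx1 and Snai1, and they were lost because their sites were too wide: a site of 7984 bp at Prrx1 and one of 7087 bp at Snai1 began at or before the 5′ end and reached far into or past the gene. As peaks were joined over all samples, such widths may exceed those in any single sample. Only 103 coding genes had the 5′ end in a site without a site middle near any TSS. The gene without any promoter site was Tcf21. The 5′ end itself lay in a site in 8 of 10 genes and in 36.5% of coding genes.

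Promoter cover, the percentage of the bases within 1 kb of the outermost 5′ end that lay in sites, ranged from none to complete. Twist1, Twist2, Prrx1 and Snai2 had a cover of 100%, so 4 of 10 genes had the whole 2 kb in sites, compared to 2.55% of coding genes. Zeb1 followed with 84.1%, Prrx2 with 57.8%, Zeb2 with 57.5%, Snai1 with 50.1% and Tcf4 with 19.2%. Tcf21 had 0.0%. The mean over the 10 genes was 66.9% ± 36.3 (SD over genes), and their median of 70.9% compares to a median of 16.5% and an upper quartile of 65.9% over all coding genes. Among coding genes with a CpG island within 1 kb of a TSS, as most of the 10 genes had, the median cover was 56.5%.

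**Figure D1:**
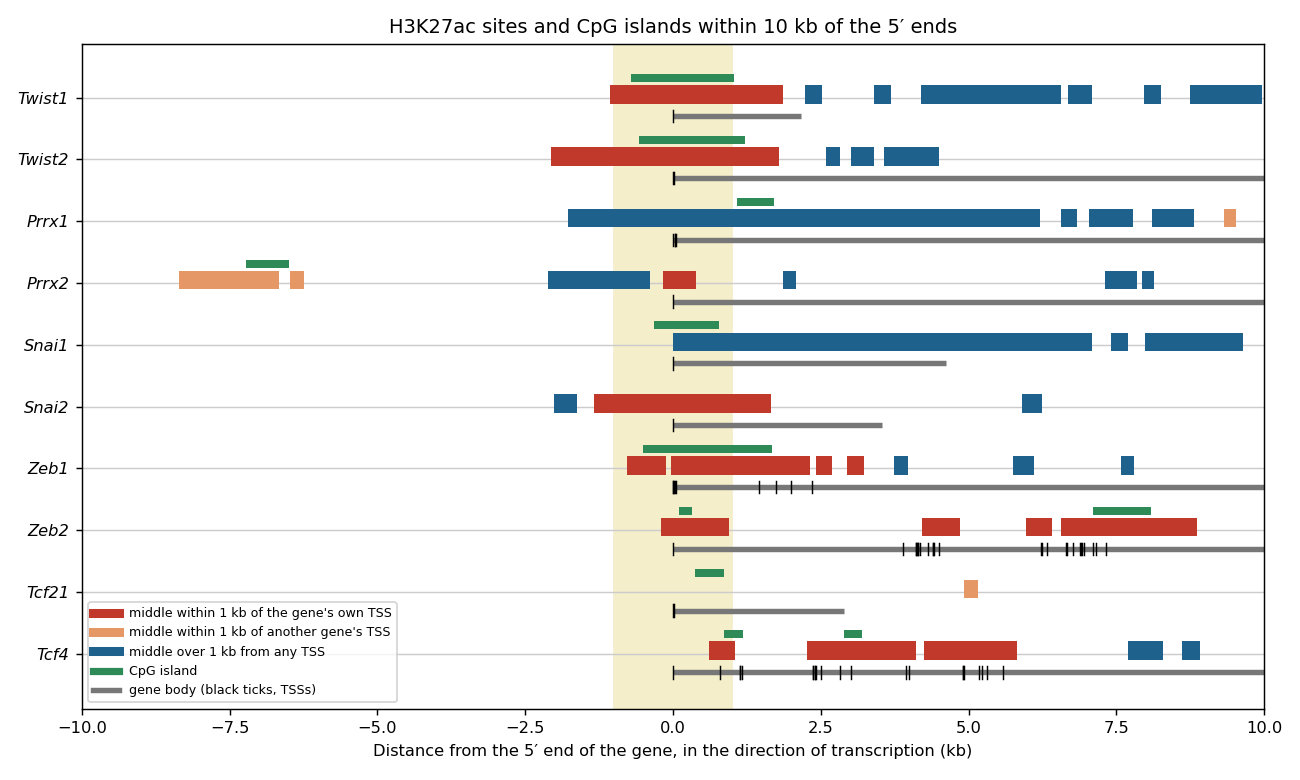
Sites, CpG islands, TSSs and gene bodies are plotted by their distance in kb from the 5′ end of each of the 10 genes, within 10 kb on either side, and the shaded band is the 1 kb on either side used for promoter cover. The sites of Twist1, Twist2, Prrx1 and Snai2 fill the band, that of Snai1 begins at the 5′ end, and Tcf21 has no site in the band.

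The 2 Twist genes looked alike at the 5′ end. A site of 2935 bp (chr12:33956597-33959531) covered the Twist1 promoter from -1074 to 1860 bp relative to the 5′ end, which left only the end of the 2159 bp gene uncovered. The site at Twist2 was 3861 bp wide (chr1:91799401-91803261) and ran from -2060 to 1800 bp. Both contained a CpG island (CGI) completely, of 1750 bp at Twist1 and 1795 bp at Twist2. Of the 7931 coding genes with a site over the 5′ end, 8.20% had a wider site there than Twist1 and 3.91% a wider one than Twist2.

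Of the Snai genes, Snai2 had its site of 2989 bp (chr16:14704523-14707511) on both sides of the 5′ end, from -1329 to 1659 bp. The Snai1 site of 7087 bp (chr2:167538194-167545280) began 1 bp before the annotated TSS and covered the entire gene of 4620 bp and the sequence behind it, up to 7085 bp. Thus the upstream 1 kb of Snai1 was covered to 0.10% and the downstream 1 kb to 100%. Its CGI of 1103 bp began at -327 bp and was covered to 70.4%. Only 0.870% of coding genes with a site over the 5′ end had a wider one.

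Prrx1 and Prrx2 differed in the arrangement of promoters. At Prrx1 the site of 7984 bp (chr1:163307509-163315492), the widest of all sites in the 10 windows, ran from -1782 to 6201 bp and included 4 of the 5 annotated TSSs. The other TSS, 24486 bp downstream, belonged to a non-coding transcript and had a cover of 0.0%. Just 0.555% of coding genes with a site over the 5′ end had a wider site. Prrx2 has a coding TSS at each of 2 positions. The outermost 5′ end lay in a site of 546 bp, and 91.8% of coding genes with a site over the 5′ end had a wider one. A separate site of 1726 bp lay just upstream, from -2116 to -391 bp. It was counted as distal because its middle lay at -1253.5 bp. The other coding TSS, 10087 bp downstream, lay in a site of 3288 bp (chr2:30844999-30848286) together with a CGI of 531 bp and a non-coding TSS.

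Zeb1 and Zeb2 had several start sites under acetylation. At Zeb1, 8 of 11 TSSs lay in a site of 2344 bp that ran from -27 to 2316 bp over a CGI of 2194 bp, of which 95.9% lay in sites. At Zeb2, 19 of 29 TSSs lay in sites, and these were 4 sites between -209 and 8855 bp. The site at the outermost 5′ end held 1 TSS and was 1151 bp wide. The widest, of 2298 bp, held 10 TSSs and contained a CGI of 974 bp, and a TSS of Zeb2 reached a cover of 92.6%.

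Tcf4 is the longest of the genes with 345724 bp and has 58 annotated TSSs, of which 40 lay in sites. Here 9 sites covered a TSS and were spread over the gene, with the first at 616 to 1044 bp and the last at 268359 to 272537 bp. A cover of 19.2% at the outermost 5′ end thus describes 1 of many promoters, while the best covered TSS of Tcf4 reached 93.4%. A site of 1854 bp from 2258 to 4111 bp included 10 TSSs, one of 1720 bp from 177752 to 179471 bp included 9, and one of 1680 bp from 248844 to 250523 bp included 8. Tcf21, which encodes a factor of visceral mesenchyme, had 0 of 2 TSSs in a site although it has a CGI of 490 bp downstream of its 5′ end, of which 0.0% lay in sites.

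Over the 10 genes, 79 of 114 TSSs lay in a site, compared to 39.9% of the TSSs of all coding genes. Of the 79, Tcf4 contributed 40 and Zeb2 19, and many of these shared a site, so that the 79 TSSs lay in 21 sites. A CGI lay within 1 kb of a TSS in 8 of 10 genes, compared to 58.3% of coding genes. The exceptions were Prrx1 and Snai2, and these had a promoter cover of 100% each. The CGI next to the Prrx1 promoter, 620 bp long, began 1089 bp downstream of the 5′ end and so just missed the range. Of the 12684 coding genes with a CGI promoter, 80.3% had a promoter site by the middle and 3.73% had a cover of 100%.

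The sequences upstream of 4 of the genes are shown because they differ in both properties, the content of CpG and the cover by sites. They end 1 base before the 5′ end, are written 5′ to 3′ on the strand of the gene with each CpG in capitals, and come from RefSeq promoters on GRCm38.p6, which listed 7 of the 10 genes. Twist1 (chr12:33957421-33957670, plus strand) had 18 CpG in 250 bases, all of them in the site. Snai1 (chr2:167537945-167538194, plus strand) had 27 CpG in 250 bases, of which 0.40% lay in a site. Prrx1 (chr1:163313711-163313900, minus strand) had 3 CpG in 190 bases, wholly in the site, and Tcf21 (chr10:22820175-22820393, minus strand) had 5 in 219 bases outside any site.
Twist1: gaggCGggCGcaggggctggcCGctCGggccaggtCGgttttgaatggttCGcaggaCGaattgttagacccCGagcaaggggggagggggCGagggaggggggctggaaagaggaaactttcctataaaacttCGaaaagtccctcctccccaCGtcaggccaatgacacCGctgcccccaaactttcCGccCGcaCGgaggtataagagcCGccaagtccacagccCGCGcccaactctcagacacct
Snai1: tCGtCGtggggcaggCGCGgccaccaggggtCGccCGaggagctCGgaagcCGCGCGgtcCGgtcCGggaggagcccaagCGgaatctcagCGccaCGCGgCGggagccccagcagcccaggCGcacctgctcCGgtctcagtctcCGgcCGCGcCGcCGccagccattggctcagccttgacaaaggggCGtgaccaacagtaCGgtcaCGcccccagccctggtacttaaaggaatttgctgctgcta
Prrx1: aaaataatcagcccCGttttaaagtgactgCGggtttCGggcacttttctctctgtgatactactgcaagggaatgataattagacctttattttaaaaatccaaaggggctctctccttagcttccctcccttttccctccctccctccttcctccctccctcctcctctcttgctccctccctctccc
Tcf21: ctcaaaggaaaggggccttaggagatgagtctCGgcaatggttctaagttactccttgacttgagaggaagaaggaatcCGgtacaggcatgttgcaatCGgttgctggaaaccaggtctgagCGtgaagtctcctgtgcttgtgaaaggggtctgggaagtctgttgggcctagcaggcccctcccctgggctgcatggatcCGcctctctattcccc

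Of the 7 motifs searched on both strands, the Snai1 stretch held the E-box CAGGTG, which SNAI and ZEB proteins bind, at -126 bp in the orientation CACCTG. The Prrx1 stretch held GGAATG, a motif of TEAD proteins, at -120 bp and TAATTA, a homeodomain motif, at -113 bp. The Twist1 and Tcf21 stretches held 0 matches. In the 250 bases upstream of all 32851 RefSeq starts, CAGGTG occurred in 17.2%, GGAATG in 12.6% and TAATTA in 4.84%. The Prrx1 and Tcf21 stretches, with 190 and 219 bases, are shorter than 250 bases, so fewer bases were searched in them. A match describes the letters and not a bound site.

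Distal sites, whose middle lay over 1 kb from every annotated TSS of any gene, made up 321 of the 375 sites in the windows (85.6%, 95% Wilson interval 81.7 to 88.8%, for counting error only). In the whole list the share was 81.3%. Of the rest, 26 lay within 1 kb of a TSS of the gene itself and 28 within 1 kb of a TSS of another gene only. Of the distal sites, 4 still covered a TSS of one of the 10 genes because they were wide, those at Prrx1 and Snai1 described above, the one at the internal Prrx2 promoter and one in Tcf4. If no base of a distal site was allowed within 1 kb of a TSS, 309 remained.

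Tcf4 had the most distal sites with 77, followed by Zeb1 with 59, Prrx1 with 49, Prrx2 with 39, Snai1 with 34, Zeb2 with 31, Twist2 with 13, Twist1 with 10, Snai2 with 7 and Tcf21 with 2. The windows differ in length, from 202159 bp at Twist1 to 545724 bp at Tcf4, and thus densities were compared. Counting promoter and distal sites, Prrx2 had 20.7 sites per 100 kb, Prrx1 20.1, Snai1 19.5, Zeb1 16.9, Tcf4 16.3 and Zeb2 11.1. Twist2 had 6.08, Twist1 5.44, Snai2 3.93 and Tcf21 2.46. The median of all coding genes was 5.54 with quartiles of 1.93 and 10.1. A density over 10 sites per 100 kb, a limit chosen after the values were seen, was found for 6 of 10 genes and for 25.5% of coding genes.

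**Figure D2:**
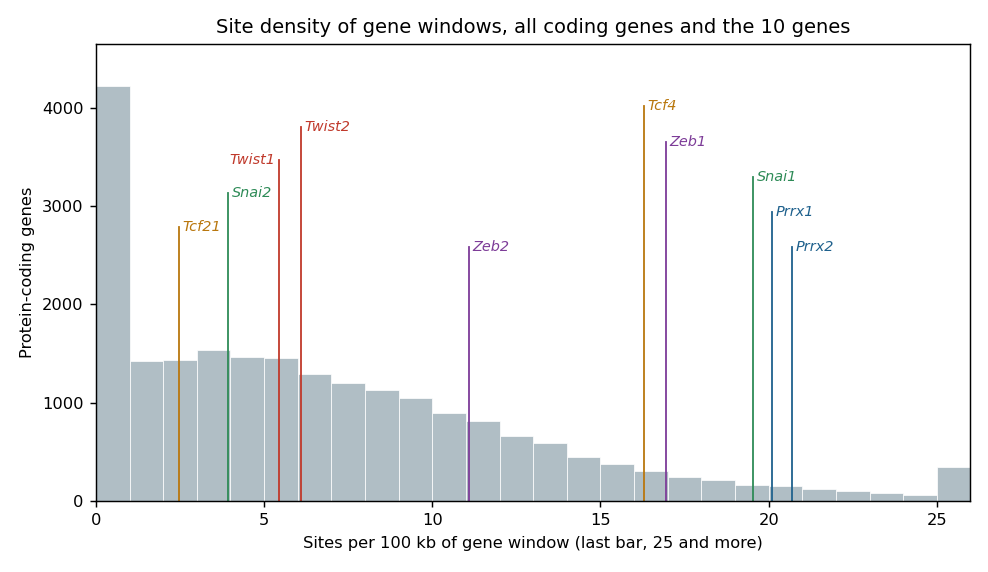
The number of protein-coding genes (y axis) is plotted by the number of sites per 100 kb of gene window (x axis), with the last bar for 25 and more, and lines mark the 10 genes. Tcf21, Snai2, Twist1 and Twist2 stand between 2.46 and 6.08, while the other 6 genes stand between 11.1 and 20.7.

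Only 3.40% of coding genes had a higher density than Prrx2, 3.84% than Prrx1 and 4.25% than Snai1, but 46.5% had a higher density than Twist2, 50.7% than Twist1, 61.0% than Snai2 and 71.0% than Tcf21. By the share of the window lying in sites, Prrx2 with 25.8% and Snai1 with 25.4% came first, and 0.970% and 1.05% of coding genes had more. These 2 windows also hold the most other genes, 7 other coding genes at Prrx2 and 6 at Snai1.

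Promoter cover and distal sites were found in several combinations. Twist1, Twist2 and Snai2 combined a cover of 100% with 4.95, 5.27 and 3.44 distal sites per 100 kb. Prrx1 had a cover of 100% and 18.2 distal sites per 100 kb, and Zeb1 84.1% and 15.4. Prrx2 had 57.8% and 15.8, Zeb2 57.5% and 9.29, Snai1 50.1% and 16.6, and Tcf4 19.2% and 14.1. These 9 genes were above the medians of coding genes in both measures, and Tcf21, with a cover of 0.0% and 0.986 distal sites per 100 kb, was below both. The medians of coding genes were 16.5% and 3.01 distal sites per 100 kb. Within each pair of paralogues the distal density was similar for Twist1 and Twist2 and for Prrx1 and Prrx2 (15.8), was higher for Zeb1 (15.4) than for Zeb2 (9.29), and was furthest apart for Snai1 and Snai2.

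**Figure D3:**
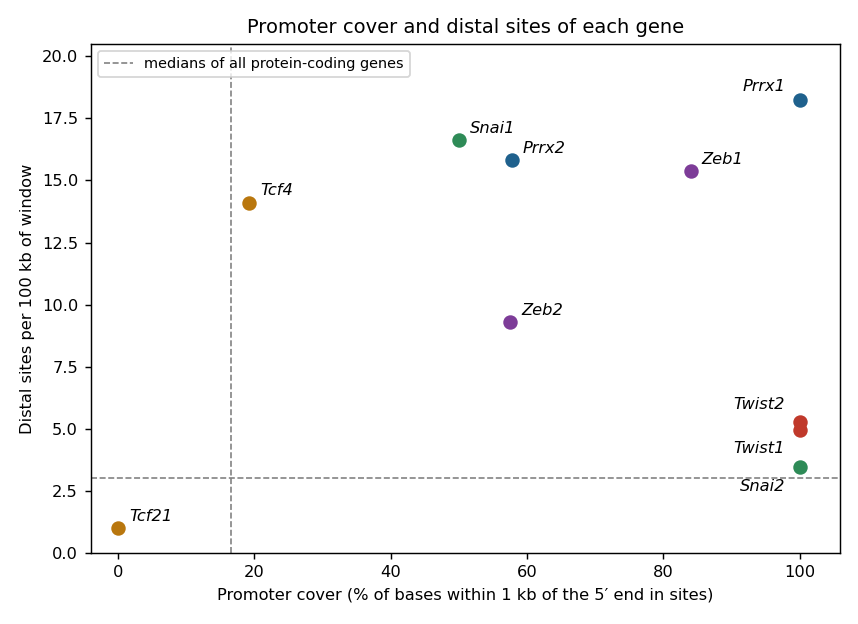
Promoter cover in percent of the 2 kb around the 5′ end (x axis) is plotted against distal sites per 100 kb of window (y axis). Each gene is 1 point, and dashed lines mark the medians of all coding genes, 16.5% and 3.01. Paralogues have the same colour, and Tcf21 and Tcf4 share a colour without being a pair of paralogues. Twist1, Twist2 and Snai2 lie at the lower right, Prrx1 at the upper right and Tcf21 at the lower left.

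The sites of Twist1, Twist2, Snai2 and Tcf21 were few enough to be described singly. Twist1 had 11 sites, and 7 of these formed a run from -1074 to 9958 bp in which 70.9% of the bases lay in sites, with gaps of at most 5 kb within a run. The widest distal site of Twist1 (2378 bp) lay from 4186 to 6563 bp. Of the others, 1 lay at 23036 to 23235 bp and 3 between 80971 and 91539 bp, the last in a UTR of Hdac9, the neighbouring deacetylase gene. Twist2 had 15 sites, of which 12 lay in its body and 3 behind it, and its widest distal sites were of 2533, 2402 and 2130 bp. No site of the Twist2 window lay in Hdac4, the neighbour on that side. Snai2 had 8 sites, of which 6 lay between -2013 and 16386 bp and 2 between 86635 and 88220 bp. The only other coding gene of its window, A630010A05Rik, carried 0.

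At Tcf21, 4 of the 5 sites lay in a run from 87965 to 93020 bp at Tbpl1, which encodes a relative of the TATA-binding protein and has its 5′ end there. The remaining site, of 239 bp, lay 4916 to 5154 bp downstream of the Tcf21 5′ end and next to a TSS of the non-coding gene Gm10824. Thus 0 of the 2 distal sites in this window were nearest to the 5′ end of Tcf21 among coding genes.

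Sites upstream of the genes were unevenly found. Twist1, Twist2, Tcf21 and Tcf4 had no site in the 100 kb upstream apart from those reaching into the gene, so 4 of 10 genes lacked one, compared to 23.6% of coding genes. Zeb2 had 2, Snai2 had 1, Snai1 had 8, Zeb1 had 10 and Prrx1 and Prrx2 had 15 each. Some of these belonged to promoters of neighbouring genes. Upstream of Snai1, 3 were promoter sites of Rnf114 and 1 of Spata2, and the 4 distal ones were nearest to the 5′ end of Rnf114. Upstream of Prrx2, 2 were promoter sites of Ntmt1, 2 of Asb6 and 1 of 1700001O22Rik. Upstream of Prrx1, 1 was a promoter site of Gorab. For Snai1, 31 sites lay downstream.

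**Figure D4:**
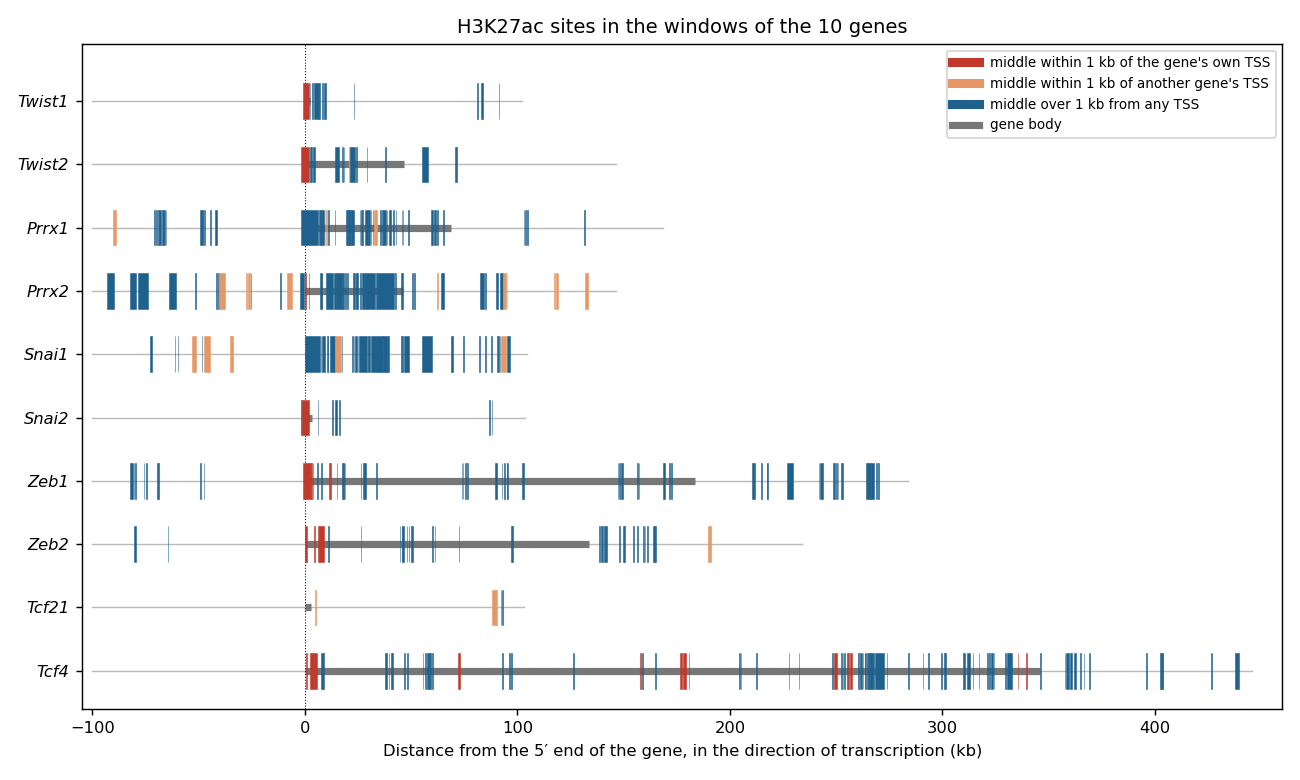
Each site is drawn as a bar at its distance in kb from the 5′ end of the gene, in the direction of transcription, along the window (thin line) and gene body (thick line) of the 10 genes, with colours for sites at the gene's own TSSs, at TSSs of other genes, and away from TSSs. Upstream of the 5′ end, the lines of Tcf21 and Tcf4 are empty and those of Twist1 and Twist2 hold only the site that covers the 5′ end, and Snai1 has a dense block from the 5′ end to 39615 bp.

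The 6 genes with over 10 sites per 100 kb, called dense here, differed in where their sites lay. At Prrx1, 35 of 54 sites lay in the gene body, which makes 51.0 sites per 100 kb compared to 9.50 in the flanks. A run of 31 sites spanned 50604 bp from -1782 to 48821 bp and held 24124 bp of the 35399 bp in sites of that window. Of the 49 distal sites, 37 were nearest to the 5′ end of Prrx1, 11 to that of its neighbour Gorab, which carried 2 sites in its body, and 1 to that of Mroh9. At Prrx2, 23 of 51 sites lay in the body (49.7 per 100 kb compared to 14.0 in the flanks), and a run of 23 sites from 7301 to 51560 bp had 64.6% of its 44260 bp in sites. This run contained the widest distal site of the 10 windows apart from that at the Prrx1 promoter, of 7939 bp (chr2:30869034-30876972) in an intron of Prrx2. The neighbour Ptges, which encodes a prostaglandin E synthase, carried 8 sites. Of the 39 distal sites, 23 were nearest to the 5′ end of Prrx2, 7 to that of Ptges, 7 to that of 1700001O22Rik and 1 each to those of Asb6 and Ntmt1.

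At Snai1 only 1 of 40 sites lay in the short gene body. A run of 18 sites from -1 to 39615 bp had 77.8% of its 39617 bp in sites, compared to 31.0 to 64.6% in the runs with the most bases in sites of the other 5 dense genes. Behind the gene this run passed through the non-coding gene Gm11476, with sites of 5919 bp (30869 to 36787 bp), 4049 bp (25348 to 29396 bp) and 3020 bp (14127 to 17146 bp). The coding genes of the window with the most sites were Gm20431 and Ube2v1, which overlap each other, with 9 sites each. Of the 34 distal sites, 19 were nearest to the 5′ end of Snai1.

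Zeb1 carried 65 sites with no other coding gene in its window, and all 59 distal sites were nearest to its own 5′ end. Its body with 19.6 sites per 100 kb was little denser than its flanks with 14.5, and 10 sites lay upstream and 19 downstream. A run of 14 sites from -772 to 18797 bp included the promoter. Zeb2 had 18 of 37 sites in its body (13.5 per 100 kb, compared to 9.50 in the flanks). Of its 31 distal sites, 14 were nearest to Zeb2 and 17 to Gtdc1, a gene of a glycosyltransferase-like protein, whose 5′ end lies downstream of Zeb2. A run of 10 sites lay behind the gene from 147890 to 165087 bp.

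Tcf4 carried 89 sites, 73 of them in its body (21.1 per 100 kb, compared to 8.00 in the flanks). The run with the most bases in sites lay late in the gene, from 247932 to 274025 bp, and had 20 sites and 14297 bp in sites. It contained the widest site of the gene, 4179 bp. Of the 77 distal sites, 45 were nearest to the 5′ end of Tcf4 among coding genes and 32 to that of Ccdc68, which lies beyond the window. However, 61 of the 77 overlapped the body of Tcf4, so a part of those nearest to Ccdc68 lay inside Tcf4.

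Taking the 10 windows as one, 196 of the 321 distal sites had their middle in an intron, 104 between genes and 21 in an exon. Of these, 171 overlapped the body of one of the 10 genes, and 227 were nearest to the 5′ end of one of them. The median width of distal sites was 366 bp, compared to 369 bp for distal sites of the whole list. Sites within 1 kb of any TSS had a median width of 676 bp in the windows and 678 bp in the whole list. The ratio of the medians was 1.85 in the windows and 1.84 in the list, so by width these sites were like the rest. Prrx2 had the widest distal sites with a median of 641 bp and Tcf21 the narrowest with 264 bp. Of the 321 distal sites, 20 were wider than 2 kb, 20 had the minimum of 200 bp, and 6 overlapped a CGI.

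Motifs of several of the factors and of common enhancer factors were counted on both strands in the central 200 bases of the distal sites. Shares are given beside those of all 99287 distal sites. No motif was counted for TCF21 or TCF4 in particular, and a match does not tell which protein binds. The TWIST-type E-box CAGATG was present in 69 of 321 (21.5%, 95% Wilson interval 17.4 to 26.3%), compared to 17.5% of all. The other TWIST-type E-box, CATATG, was present in 9 (2.80%, compared to 4.35%). The E-box CAGGTG, which SNAI and ZEB proteins bind, was present in 47 (14.6%, compared to 14.1%) and the homeodomain motif TAATTA in 9 (2.80%, compared to 2.73%). For AP-1 the pattern TGANTCA was searched, in which N is any base, so it also takes in sequences other than the AP-1 motif TGA(C/G)TCA. It was present in 22 (6.85%, compared to 8.84%). The TEAD motif GGAATG was present in 49 (15.3%, compared to 12.9%) and the RUNX motif TGTGGT in 48 (15.0%, compared to 16.8%). Neighbouring sites are not independent, so the interval covers counting error only, and these shares were not tested. In the central 400 bases, CAGATG was present in 37.7% (interval 32.6 to 43.1%), compared to 31.2% of all, and CAGGTG in 30.5% (25.7 to 35.8%), compared to 24.6% of all. Many sites are shorter than 400 bases, as the median width of distal sites in the windows was 366 bp.

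By gene, CAGATG was present in 4 of 10 distal sites of Twist1, 1 of 13 of Twist2, 10 of 49 of Prrx1, 5 of 39 of Prrx2, 12 of 34 of Snai1, 0 of 7 of Snai2, 16 of 59 of Zeb1, 6 of 31 of Zeb2, 0 of 2 of Tcf21 and 15 of 77 of Tcf4. CAGGTG was present, in the same order, in 1, 1, 4, 9, 6, 0, 11, 3, 0 and 12 sites. Of the 9 sites with CATATG, 4 were among the 49 of Prrx1.

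The following distal sites are printed whole because they lie next to or inside the genes and carry E-boxes of the factor families described here, and they were chosen after their motifs were seen. All are written 5′ to 3′ on the plus strand of GRCm38.p6 with matches to any of the 7 motifs in capitals. The site behind Twist1 (chr12:33961069-33961365, 297 bp, intergenic, middle at 3546 bp) had CAGATG 2 times and TGTGGT 1 time. The site in an intron of Prrx1 (chr1:163299405-163299646, 242 bp, middle at 14184.5 bp) had CATATG and TGTGGT. The site in an intron of Zeb2 (chr2:45072601-45072800, 200 bp, middle at 44694.5 bp) had CAGATG and CAGGTG, each as its reverse complement. Repeats made up 0.337%, 9.92% and 11.0% of these sites.
Twist1 site: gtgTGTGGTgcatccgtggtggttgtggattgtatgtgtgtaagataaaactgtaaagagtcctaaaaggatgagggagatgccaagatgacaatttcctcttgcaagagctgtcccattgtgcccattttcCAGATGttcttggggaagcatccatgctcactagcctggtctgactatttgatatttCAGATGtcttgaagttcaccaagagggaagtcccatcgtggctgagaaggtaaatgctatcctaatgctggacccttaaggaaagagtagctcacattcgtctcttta
Prrx1 site: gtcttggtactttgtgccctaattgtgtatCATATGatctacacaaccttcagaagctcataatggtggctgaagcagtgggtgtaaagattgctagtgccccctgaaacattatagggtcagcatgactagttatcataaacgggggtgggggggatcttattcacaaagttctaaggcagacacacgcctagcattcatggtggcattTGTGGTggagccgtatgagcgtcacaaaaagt
Zeb2 site: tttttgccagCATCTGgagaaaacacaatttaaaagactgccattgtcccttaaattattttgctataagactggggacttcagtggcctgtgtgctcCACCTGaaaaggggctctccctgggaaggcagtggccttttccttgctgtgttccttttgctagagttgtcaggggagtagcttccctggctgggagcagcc

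Genes that work with or against these factors were counted in the same way. The bHLH partners and inhibitors comprise the E protein genes Tcf3 and Tcf12 and Id1, Id2, Id3 and Id4, whose products bind E proteins but not DNA. All 6 of 6 had a promoter site and a CGI promoter, compared to a promoter site in 54.7% of coding genes and in 80.3% of those with a CGI promoter, and their median promoter cover was 82.6%. Of 12 related factors of the same families with more restricted expression, 11 were found in the annotation and 0 of these had a promoter site by the middle, although 9 had a CGI. By overlap, Snai3 and Scx had one, with a promoter cover of 79.1% and 100%. Ferd3l, a bHLH gene in the Twist1 window, had a cover of 0.0%.

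Of 14 epithelial genes and regulators, among them the SNAI and ZEB target Cdh1 and the epithelial regulators Grhl2, Ovol1 and Ovol2, only Esrp2 had a promoter site by the middle, with a cover of 74.0%, although 13 of the 14 had a CGI. Of 14 mesenchymal genes, of which 6 had a CGI promoter, 11 had a promoter site, compared to 54.7% of coding genes. The 3 without were Cdh11, Fap and Loxl2, and of these Cdh11 had a promoter cover of 55.3% and the other 2 of 0.0%. Vim, which encodes vimentin, and Tagln, which encodes transgelin, had a cover of 100% each. Of 12 other mesenchymal transcription factors 8 had one, but 10 of the 12 had a CGI promoter, and of coding genes with a CGI promoter 80.3% had a promoter site. Those without were Foxc2, Meox2, Hand2 and Gsc, and Foxc2 still had a cover of 82.1%. The median density of the windows was 14.4 sites per 100 kb for the mesenchymal genes, 4.78 for the other mesenchymal factors and 6.51 for the epithelial genes, compared to 13.7 for the 10 genes. These lists are not separate from the marker genes above. Pdgfra, Pdgfrb, Thy1 and Postn are also fibroblast markers, and Cdh1, Epcam, Cldn7 and Esrp1 are also epithelial markers.

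**Figure D5:**
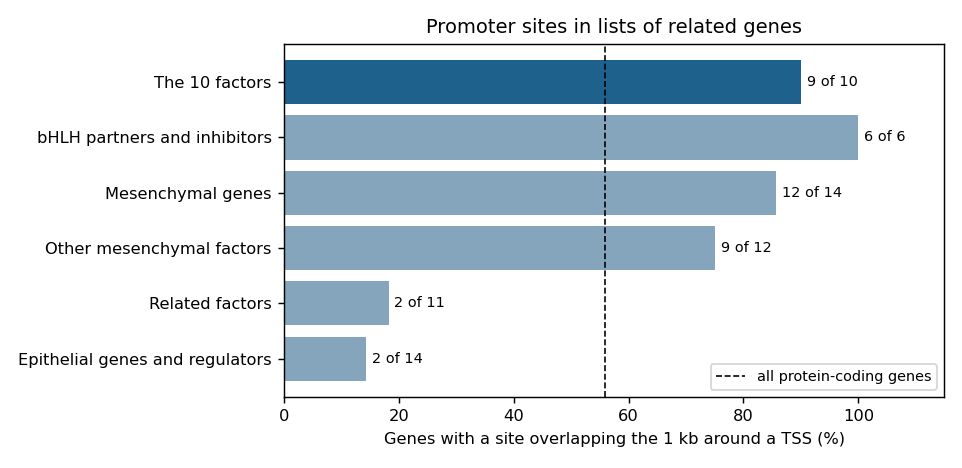
Bars give the percentage of genes in each list with a site overlapping the 1 kb around a TSS, with the count beside each bar, and the dashed line marks all protein-coding genes at 55.8%. The 10 factors reached 9 of 10, the epithelial genes 2 of 14 and the related factors 2 of 11.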

How the data were processed

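The 14 libraries were processed by the authors. Reads were trimmed, aligned with BWA to mm10, filtered as ENCODE recommends and merged over replicates, and narrow peaks were called with MACS (MACS2 per the labels; version and threshold are not given in the sources used here). Peaks of all samples were joined into 1 list, and the authors deposited for each site a chromosome, a start and an end in bp, with no count, score or sample. The way of joining is not given in the sources used here. A width may exceed that in any single sample, and samples cannot be compared.

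Starts were read as counted from 0, since the narrowest sites then measured 200 bp, and printed positions count from 1. Sequence of GRCm38.p6 and genes of GENCODE M21 were used. The authors used M25, so that TSSs can differ. CGIs were called in the repeat-masked sequence by scoring 17 for a CpG and -1 for another base, with minimums of 200 bp, 50% GC and 0.6 for observed over expected CpG. A gene was nearest by the outermost 5′ end of coding genes. No test was made, since there were no values per sample, and lists are given by counts and medians beside those of all coding genes. The genes, lists and definitions were chosen with earlier results of these data known. All 10 genes were named, for each other list the genes on the smaller side of its count, and for each window the coding neighbour with the most sites in its body. Other genes in the text, such as Vim, were named after their values were seen. Functions were tested on simulated data. Python 3.11.15, numpy 2.4.6, scipy 1.17.1, numba 0.67.0 and matplotlib 3.10.9 were used.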

Additional observations from a re-analysis of the deposited data

How the results depend on the processing

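Of the 29 other settings tried for the 6 main results, 26 stayed within 1.5 times the value given or, for the mean promoter cover, within the SD over genes. The 375 sites in the windows became 200 with the gene body alone and 167 after sites less than 1 kb apart were merged. The ratio of the median widths of promoter and distal sites became 2.83 with TSSs of protein-coding transcripts only. The range over the other settings was 283 to 535 for the sites in the windows, 7 to 9 for the genes with a promoter site, 56.1 to 80.3% for the mean promoter cover, 240 to 349 for distal sites, 1.27 to 2.30 for the ratio of widths, and 6 to 9 for genes with a CGI promoter. The 2 settings in which no base of a distal site lay within 1 kb of a TSS were chosen after seeing the data, and gave 309 distal sites and a ratio of 2.29. In the central 400 bases, motif shares were higher for all 7 motifs, as a longer stretch is searched. In the central 200 bases the share over all distal sites lay within the interval of the windows for all 7 motifs, and in the central 400 bases for 5, with CAGATG (37.7%, compared to 31.2% of all) and CAGGTG (30.5%, compared to 24.6%) outside. The intervals cover counting error only, treat neighbouring sites as independent and were not adjusted for the 7 motifs. No share was tested. No paired analysis was possible because no sample has values of its own in these data. The list gives neither depth nor peak height, so a gene without a site had none called and may still carry the mark below the authors' threshold.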
